A study of Mus musculus with 6 samples.

Results

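Replication-independent histone variants are histones made throughout the cell cycle from genes outside the large histone clusters, and they replace the common histones in chromatin of cells that no longer divide. They were followed here through 9 mouse genes, taken as all probes of the array that carry the gene names H2afy, H2afy2, H2afz, H2afv, H2afx, H2afj, H3f3a, H3f3b or H1f0, among 37074 gene names on the array. These genes are measured by 17 probes of 60 bases each. For 5 genes there is 1 probe, and for the other 4, H2afy, H3f3a, H3f3b and H1f0, there are several. Of the 17 probes 2, named for H2afy and H1f0, lie on the strand opposite to the gene. A signal well above background, as the scanner judges it, was found for 15 of the 17 on each of the 6 arrays, and each gene had at least 1 of them.

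The arrays hold RNA of whole hypothalamus from male C57BL/6J mice with obesity induced by a high-fat diet with 60 kcal% fat. Mice of 1 group received GSK-J4 at 30 mg/kg, an inhibitor of the Kdm6 enzymes that remove methyl groups from lysine 27 of histone H3, and mice of the other group received the vehicle. By the methods GSK-J4 was dissolved in DMSO and water and injected daily, and the content of the vehicle is not stated. Each group has 3 arrays with a different mouse for each, taken on day 4 by the series design, whereas the methods describe a longer course. The labels give no age, and the methods describe feeding that began in young mice and went on for months before treatment. The question addressed by the arrays is how gene expression in the hypothalamus changes with the inhibitor, and all directions below follow the deposited labels, GSK-J4 against vehicle. The study lists H2afy among the genes lowered with GSK-J4, although its running text does not name the gene. Here the H2afy probes did not share a direction and those called were higher, as described below with their strands. These calls rest on an adjusted p without a fold threshold, unlike those of the methods. At the methods' threshold of a 1.5-fold change and an unadjusted p of at most 0.05, only the probe opposite to H2afy passed, as higher. An exchange of the labels was not tested, and it would turn the sign of every difference below. From its transcriptome of the hypothalamus the study reports less Cry1 and more Clock with GSK-J4. By real-time PCR it reports the same for these genes, and more Rora. Here the Rora probe with the highest mean signal differed by 0.42 (limma adjusted p = 0.178), with overlap of the groups. Of the 3 kept probes of Rora 1 was called lower. Cry1 and Clock are outside the gene lists followed here, and their values are not reported.

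The groups also differ in the slide and in the scan. All vehicle arrays lie on slide 1 and all arrays labelled GSK-J4 on slide 2, so slide and treatment cannot be told apart for any value below. The arrays labelled GSK-J4 were dimmer before normalization, with a 75th percentile of the scanner signal of 461, 454 and 407 intensity units, against 803, 916 and 788 for vehicle. The share of probes well above background was 58.7%, 57.7% and 58.6% for GSK-J4 and 63.6%, 63.4% and 62.8% for vehicle. Single arrays also differ from the rest of their group. GSK-J4 replicate 3 correlated least with the other arrays of its group, with r of 0.978 and 0.980, where the vehicle arrays reached 0.990 to 0.995 among themselves, and it had the lowest array weight in limma, 0.523. Some strong probes dropped on it alone, such as that of Ubn1, named after its values were seen, with 7.16 against 11.83 and 11.80 on the other arrays labelled GSK-J4. One vehicle array stands apart in choroid plexus signal. The summed linear signal of 7 choroid plexus markers, of which Ttr is the most abundant, was 108235 on vehicle replicate 1, 3093 and 3150 on the other vehicle arrays, and 12157, 2587 and 5595 on the arrays labelled GSK-J4. Of 17 hypothalamic markers 11 were measured, Agrp, Npy, Pomc, Cartpt, Hcrt, Oxt, Crh, Kiss1, Tac2, Ghrh and Nr5a1, while Pmch, Avp, Trh, Sim1, Nkx2-1 and Otp missed the detection rule, which asks for a signal well above background on the 3 arrays of a group.

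In chromatin, variant histones mark places and states. MacroH2A carries a large additional domain beyond the histone fold and is known from silenced chromatin such as the inactive X chromosome. H2A.Z sits beside transcription start sites, H2A.X is phosphorylated around DNA breaks, H3.3 is laid down in active genes and at telomeres, and the linker histone H1.0 accumulates in differentiated cells. In neurons, which do not replicate their DNA, H3.3 replaces the replication-coupled forms of H3 with age.

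Tested with limma over all 34444 kept probes and called where the adjusted p did not exceed 0.05, 4 of the 15 member probes were higher on the arrays labelled GSK-J4 and 1 was lower. Over all kept probes 8.39% were higher and 8.42% lower by the same rule. The higher ones are A_52_P179238 of the H2afy mRNA, A_66_P123581 on the strand opposite to H2afy, and the probes of H2afx and H2afj, and the lower one is that of H1f0. Without the opposite-strand probe 3 of 14 were higher and 1 was lower. The median log2 difference over the 15 probes was 0.01, against 0.02 over all kept probes. The values of the groups did not overlap for 6 probes that were higher and 3 that were lower, where 24.5% and 21.2% of all kept probes had such a separation in the respective direction. In each of the called probes all 3 arrays labelled GSK-J4 lay on the same side of all 3 vehicle arrays. The size of the differences was small, from 1.20-fold for H2afx to 1.51-fold for the probe opposite to H2afy, and that probe alone among the 15 was past the methods' threshold of a 1.5-fold change with an unadjusted p of at most 0.05, which 4.79% of kept probes passed as higher and 7.86% as lower.

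**Figure D1:**
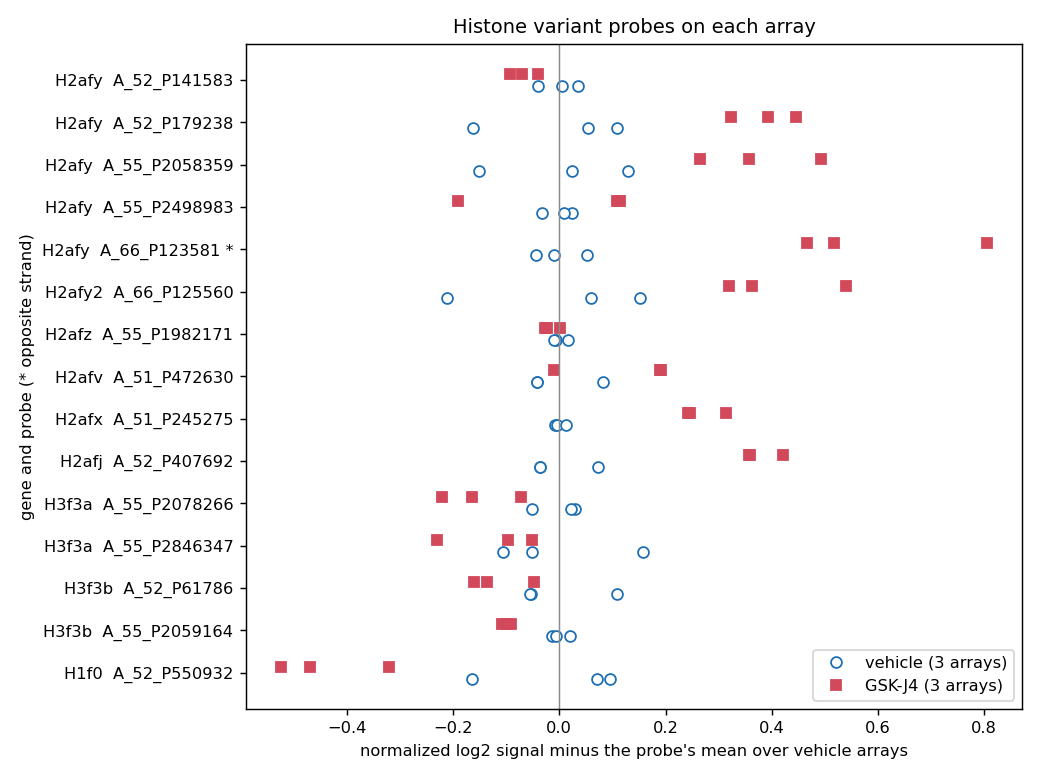
Normalized log2 signal of each kept histone variant probe on each array, minus the mean of that probe over the 3 vehicle arrays (open circles vehicle, squares GSK-J4, a star marks the probe on the strand opposite to its gene). The squares lie right of all circles for the H2afy probes A_52_P179238, A_55_P2058359 and A_66_P123581, for H2afy2, H2afx and H2afj, and left of all circles for H3f3a A_55_P2078266, H3f3b A_55_P2059164 and H1f0.

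The calls did not hold under all settings. With the trend on probe GC content removed within each array, 0 of the 15 member probes passed the limma adjusted p, where 4.25% of all kept probes were called higher and 6.45% lower, and 3 member probes were higher and 3 lower at an unadjusted p of at most 0.05. Counts at an unadjusted p alone, here and below, stand without the share over all kept probes. Nothing about the members is read from them. When any 1 array was left out, limma called 0 or 1 member probe higher and 0 lower, with 5 to 6 higher and 1 lower at an unadjusted p of at most 0.05. Calls were few over all kept probes too when a vehicle array was left out, 1 to 2 higher and 4 to 12 lower, whereas without an array labelled GSK-J4 they were 973 to 2076 higher and 1429 to 2481 lower. The lack of member calls without a vehicle array is therefore not particular to the members. Each sample is a tissue with many cell types, so fewer cells of a type and less RNA per cell cannot be told apart.

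H2afy, now Macroh2a1, encodes macroH2A1, which is made in 2 splice forms that differ in a stretch of the macrodomain. It has the most probes of the 9 genes, and they are shown because they cover different parts of the transcript and gave different answers. All lie on chromosome 13 in mm9, the build named in the file headers, and the gene is transcribed from the minus strand. The files do not say which exon or untranslated part a probe falls in. The sequences are given from 5′ to 3′.
A_52_P141583, chr13:56184528-56184587: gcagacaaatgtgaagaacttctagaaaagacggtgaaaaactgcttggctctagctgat
A_52_P179238, chr13:56189613-56189672: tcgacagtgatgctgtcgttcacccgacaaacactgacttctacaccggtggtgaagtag
A_55_P2058359, chr13:56205682-56205741: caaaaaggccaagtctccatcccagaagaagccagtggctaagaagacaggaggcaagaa
A_55_P2498983, chr13:56175597-56175656: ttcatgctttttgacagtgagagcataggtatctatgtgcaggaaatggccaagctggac
A_66_P123581, chr13:56185573-56185632: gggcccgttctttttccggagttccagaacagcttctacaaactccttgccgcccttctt

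The annotation assigns 3 of these probes, A_52_P141583, A_55_P2058359 and A_55_P2498983, to all 4 mRNA records of H2afy. A_52_P179238 is assigned to 2 of the 4 and to 2 non-coding records, so it sees a subset of the splice forms, and the files do not say which protein form those records encode. A_66_P123581 runs along the plus strand, opposite to the gene, and is assigned to a single cDNA record, so it reads RNA from the opposite strand and not the H2afy mRNA itself.

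Of the 4 probes on the strand of the mRNA, 1 was called, and it was higher. This probe, A_52_P179238, gave a normalized log2 signal of 8.34, 8.39 and 8.12 on the vehicle arrays and 8.68, 8.61 and 8.73 on the arrays labelled GSK-J4. All 3 of the latter were above all of the former. The log2 difference was 0.39 (standard error 0.10, limma adjusted p = 0.0476), and in the exact permutation test the two-sided p was 0.1, the smallest that 3 arrays against 3 can give. With the GC trend removed it was 0.17 (limma adjusted p = 0.261), and the groups still did not overlap. The call was also lost with normexp background correction, where the difference was 0.24, and with array weights, where it was 0.35. Of the 19 alternatives that give an adjusted p, 4 kept the call of A_52_P179238.

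The opposite-strand probe A_66_P123581 read 5.72, 5.82 and 5.76 on vehicle and 6.28, 6.23 and 6.57 on GSK-J4. The groups did not overlap, and GSK-J4 replicate 3 was the highest. The log2 difference of 0.60 (95% confidence interval 0.33 to 0.87, limma adjusted p = 0.0263) had the highest value among the 15 member probes. With the GC trend removed it was 0.37 (limma adjusted p = 0.0647), with both groups still apart. Over the alternatives it lay between 0.30 with normexp background correction and 0.66, the mean of all probes of the gene aside.

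The other 3 H2afy probes were not called. A_55_P2058359 gave 8.56, 8.84 and 8.73 on vehicle and 9.20, 9.07 and 8.97 on GSK-J4, again without overlap, with a log2 difference of 0.37 (limma adjusted p = 0.0649). Its difference fell to 0.17 (limma adjusted p = 0.326) and the groups overlapped when the GC trend was removed. With normexp background correction A_55_P2058359 was called higher, at 0.30. A_52_P141583 gave 10.91, 10.94 and 10.86 against 10.86, 10.83 and 10.81, which overlap, and a log2 difference of -0.07 (limma adjusted p = 0.494). A_55_P2498983, of the 5 the nearest to the 3′ end of the gene, gave 12.47, 12.45 and 12.41 against 12.55, 12.56 and 12.25, so that 2 arrays labelled GSK-J4 were above and 1 below all vehicle arrays. Its log2 difference was 0.01 (95% confidence interval -0.25 to 0.27, limma adjusted p = 0.948).

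The order of the 5 differences followed the GC content of the probes. A_52_P141583 and A_55_P2498983, with a GC content of 41.7% and 45%, had differences of -0.07 and 0.01, where the median of all kept probes with the same GC content was 0.01 and 0.08. A_55_P2058359, A_52_P179238 and A_66_P123581, with 50%, 51.7% and 53.3%, had differences of 0.37, 0.39 and 0.60, where the corresponding medians were 0.19, 0.22 and 0.22. Within an array the log2 ratio of A_52_P179238 to A_52_P141583 rose by 0.46 between the groups, and by 0.24 with the GC trend removed, without overlap of the arrays in either case. The ratio of A_52_P179238 to A_55_P2058359, which has nearly the same GC content and sees all 4 records, changed by 0.02, with overlap (exact permutation test, two-sided p = 1). Of the 10 pairs that the 5 probes form, 6 had ratios without overlap, and 5 with the GC trend removed. Their exact permutation p was 0.1 each, or 0.167 after Benjamini-Hochberg adjustment over the 10 pairs.

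H2afy2, now Macroh2a2, encodes the second macroH2A protein and has 1 probe, A_66_P125560, at chr10:61201395-61201428 for the 34 bases that the files place on the genome. It read 10.25, 10.52 and 10.62 on vehicle and 11.00, 10.83 and 10.78 on GSK-J4, with every array labelled GSK-J4 above every vehicle array. The log2 difference was 0.41 (95% confidence interval 0.10 to 0.71, limma adjusted p = 0.0719) and did not pass the threshold. With the GC trend removed it was 0.33 (limma adjusted p = 0.139), and with 75th percentile scaling in place of quantile normalization it was 0.49 (limma adjusted p = 0.0397). At the GC content of this probe, 45%, the median over all kept probes was 0.08.

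H2A.Z is encoded by H2afz (H2az1) and H2afv (H2az2), whose proteins differ in few residues. H2afz is measured by A_55_P1982171, printed at 10 spots on the array, at chr3:137529723-137529782. Its values were 14.67, 14.65 and 14.65 on vehicle and 14.63, 14.63 and 14.66 on GSK-J4. These overlap, and the log2 difference was -0.02 (95% confidence interval -0.17 to 0.14, limma adjusted p = 0.869). Scaled to the 75th percentile of each array, the same spots gave 0.36 (limma adjusted p = 0.0202), so for H2afz the direction and the call depend on the normalization. H2afv, measured by A_51_P472630 at chr11:6328173-6328232, read 13.12, 13.00 and 13.00 on vehicle and 13.03, 13.23 and 13.23 on GSK-J4. The groups overlap through GSK-J4 replicate 1, and the log2 difference of 0.12 (limma adjusted p = 0.361) did not pass, and it was 0.05 (limma adjusted p = 0.730) with the GC trend removed. Scaled to the 75th percentile it was 0.35 (limma adjusted p = 0.0324).

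H2A.X is the variant that kinases of the DNA damage response phosphorylate next to a break. Its gene H2afx has the probe A_51_P245275 at chr9:44144033-44144092. The vehicle arrays read 11.78, 11.78 and 11.80 and the arrays labelled GSK-J4 12.10, 12.03 and 12.03. The vehicle values lay within a few hundredths of each other and all GSK-J4 values were above them. The log2 difference was 0.27 (standard error 0.07, limma adjusted p = 0.0449). It was 0.19 with the GC trend removed (limma adjusted p = 0.122), still without overlap, and 0.42 with 75th percentile scaling (limma adjusted p = 0.0156).

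H2A.J is a close relative of the common H2A that differs from it mainly at the tail of the protein. The H2afj probe lies at chr6:136757181-136757240 and has the highest GC content of the 15 kept member probes, 60%, as its sequence shows.
A_52_P407692: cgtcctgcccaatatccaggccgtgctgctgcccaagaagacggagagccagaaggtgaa
It read 14.47, 14.36 and 14.36 on vehicle and 14.75, 14.75 and 14.81 on GSK-J4, and the 3 arrays labelled GSK-J4 were close together and above the vehicle arrays. The log2 difference was 0.38 (95% confidence interval 0.20 to 0.55, limma adjusted p = 0.0269). Over the 235 kept probes with 60% GC the median difference was 0.23. With the GC trend removed, the H2afj difference was 0.11 (95% confidence interval -0.07 to 0.29, limma adjusted p = 0.331) and the groups overlapped, while with 75th percentile scaling it was 0.74 (limma adjusted p = 0.0107). The sign was positive under every alternative run.

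**Figure D2:**
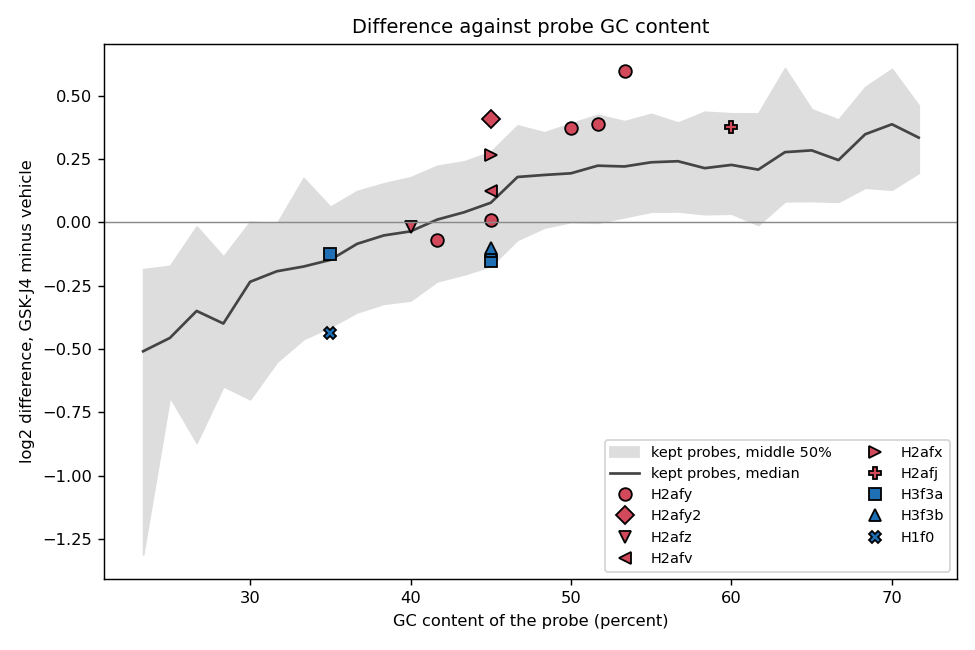
Log2 difference (GSK-J4 minus vehicle) of the 15 kept member probes against the GC content of the probe in percent, with the median (line) and the middle 50% (grey) of all kept probes at each GC content that has at least 20 of them. The median runs from -0.15 at 35% GC to 0.23 at 60% GC. H1f0 lies at the low end of GC content and below 0, and H2afj at the high end and above 0.

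H3.3 is made from H3f3a and H3f3b, which encode the same protein. All 4 kept probes had a lower mean on the arrays labelled GSK-J4 and none was called, with log2 differences from -0.15 to -0.10. For H3f3a, A_55_P2078266 at chr1:182733208-182733267 read 12.08, 12.08 and 12.00 on vehicle and 11.89, 11.98 and 11.83 on GSK-J4, without overlap, a log2 difference of -0.15 (95% confidence interval -0.34 to 0.03, limma adjusted p = 0.198). The second H3f3a probe, A_55_P2846347 at chr1:182733008-182733067, read 14.52, 14.31 and 14.25 on vehicle and 14.13, 14.31 and 14.26 on GSK-J4, which overlap, and differed by -0.13 (limma adjusted p = 0.406). Both of these probes are also assigned to a record of Gm12657, so RNA of that near copy would be read together with H3f3a.

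For H3f3b, A_55_P2059164 read 13.93, 13.96 and 13.93 on vehicle and 13.83, 13.85 and 13.84 on GSK-J4. The groups did not overlap, and the difference of -0.10 (95% confidence interval -0.25 to 0.06, limma adjusted p = 0.299) did not pass. A_52_P61786 read 14.20, 14.04 and 14.04 against 13.94, 13.96 and 14.05, which overlap, a difference of -0.11 (limma adjusted p = 0.354). They lie at chr11:115883275-115883295, for 21 of the bases, and chr11:115884687-115884746. The direction of the H3.3 probes depended on the setting. When the GC trend was removed, A_55_P2846347 of H3f3a turned to 0.02, while A_55_P2078266 gave -0.23 (95% confidence interval -0.43 to -0.02) and the H3f3b probes A_55_P2059164 and A_52_P61786 gave -0.17 (95% confidence interval -0.33 to -0.01) and -0.19 (95% confidence interval -0.38 to 0.00), none called by limma. With 75th percentile scaling the differences were 0.01 and 0.20 for H3f3a and 0.18 and 0.19 for H3f3b, with none called. The third H3f3a probe, A_66_P114268, at the very start of the mRNA record, was detected on 1 of 6 arrays and was not tested.

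The linker histone H1.0, encoded by H1f0, binds the DNA between nucleosomes. Its kept probe, A_52_P550932 at chr15:78859930-78859989, read 7.20, 7.22 and 6.96 on vehicle and 6.60, 6.66 and 6.81 on GSK-J4. Every array labelled GSK-J4 was below every vehicle array, and the log2 signal fell by 0.44 (standard error 0.11, limma adjusted p = 0.0438), or 1.35-fold. It is the only member probe called lower. Its GC content is 35%, where the median over 7292 kept probes was -0.15. With the GC trend removed the difference was -0.29 (95% confidence interval -0.55 to -0.04, limma adjusted p = 0.120), still without overlap, and under each alternative run it stayed below 0, from -0.57 to -0.25. The other H1f0 probe, A_66_P118435, lies on the opposite strand from the gene, at chr15:78856915-78856974, and was detected on none of the arrays.

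**Figure D3:**
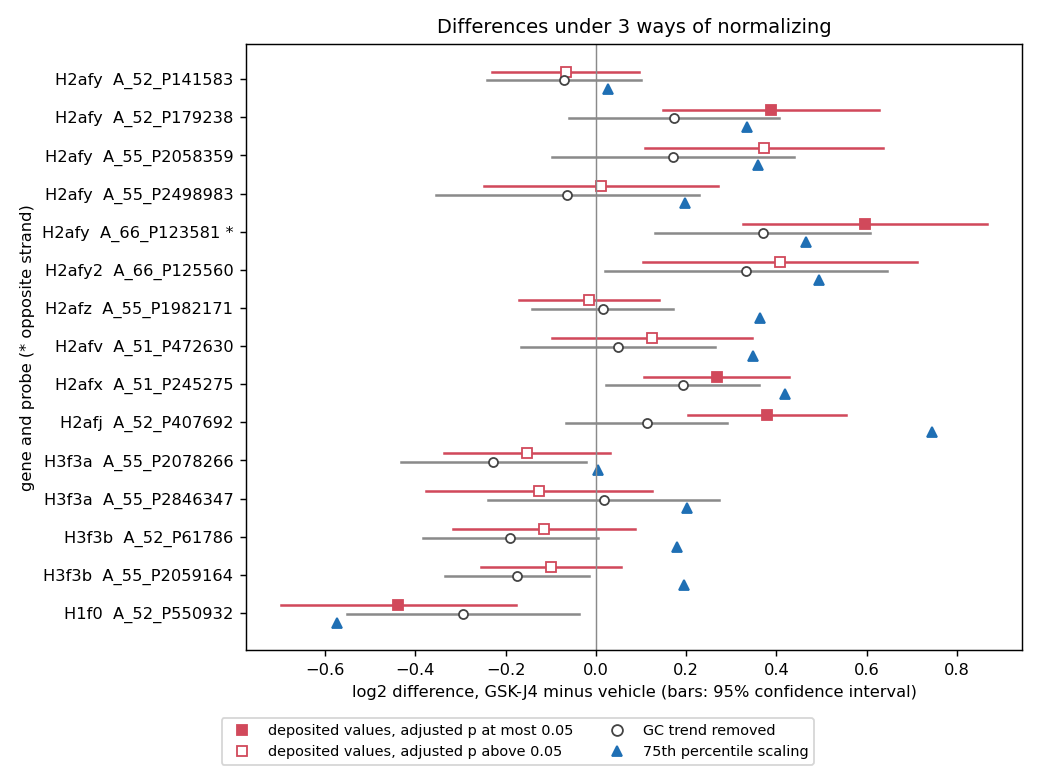
Log2 difference (GSK-J4 minus vehicle) of each kept member probe with the deposited values (squares, filled where the limma adjusted p was at most 0.05), with the GC trend removed (open circles) and with 75th percentile scaling of the scanner signals (triangles). Bars are 95% confidence intervals of the former 2. H1f0 is below 0 and H2afx, H2afj, H2afy2 and the H2afy probes A_52_P179238, A_55_P2058359 and A_66_P123581 are above 0 under all 3, as is H2afv, whereas H2afz, the H3f3a and H3f3b probes and the H2afy probes A_52_P141583 and A_55_P2498983 change side.

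The variants are placed and removed by dedicated chaperones and remodelling complexes. These genes were taken with 1 probe each, the one with the highest mean signal, and over all 22117 genes measured this way 8.60% were called higher and 7.56% lower by limma, and 4.41% and 5.57% with the GC trend removed. Of the 9 variant genes 2 were higher and 1 was lower, and with the GC trend removed limma called 0 and 0, with 2 and 1 at an unadjusted p of at most 0.05. Of 8 genes for H3.3 deposition limma called 0 higher and 1 lower, with 0 and 2 at an unadjusted p of at most 0.05. Ubn2, a subunit of the HIRA complex, fell by 0.38 (limma adjusted p = 0.0288), and all 3 of its kept probes were called lower, with differences from -0.49 to -0.38. It was also called with the GC trend removed, at -0.42 (limma adjusted p = 0.0317). Hira itself differed by 0.12 (limma adjusted p = 0.537), and for Daxx and Atrx, which place H3.3 at telomeres and other repeats, the differences were 0.11 (limma adjusted p = 0.429) and 0.00 (95% confidence interval -0.29 to 0.29).

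The list for H2A.Z deposition and removal held 32 measured genes, of which 5 were higher and 2 lower, with a median difference of 0.00 against 0.04 over all genes. Ino80b, a subunit of the INO80 remodeller, rose by 1.06 (limma adjusted p = 0.0172), and its second probe by 0.63 (limma adjusted p = 0.0218). Znhit1 of the SRCAP complex rose by 0.58 (limma adjusted p = 0.0166) and Actr5 of INO80 by 0.41 (limma adjusted p = 0.0241). On the probe counted these 3 remained called with the GC trend removed, and the second Ino80b probe did not, at 0.41 (limma adjusted p = 0.0673). The other 2 higher genes, Tfpt and Dmap1, were named after their values were seen, and with the GC trend removed the probe of neither was called, though the other probe of Tfpt was, at 0.41 (limma adjusted p = 0.0319). Mbtd1 fell by 0.44 (limma adjusted p = 0.0350), and of its 7 kept probes only this 1 was called. It was not called with the GC trend removed, at -0.38 (limma adjusted p = 0.0548). Anp32e, the chaperone that takes H2A.Z out of chromatin, fell by 0.31 (limma adjusted p = 0.0440) on a probe of 26.7% GC, its difference was 0.01 with the GC trend removed, and its second probe gave -0.12 (limma adjusted p = 0.439). The remodeller ATPases Srcap and Ep400 differed by -0.17 (limma adjusted p = 0.154) and -0.24 (limma adjusted p = 0.0900). Another probe of Srcap was called in the other direction, at 0.50 (limma adjusted p = 0.0324), and 1 of the 4 kept probes of Morf4l1, not the one counted, was called lower, at -0.30 (limma adjusted p = 0.0469). Neither was called with the GC trend removed.

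On the probe counted, none of the 13 genes for H2A.X phosphorylation and reading was called by limma, with 2 at an unadjusted p of at most 0.05 higher and 1 lower. Atm, the kinase of broken DNA, differed by 0.29 (limma adjusted p = 0.378), and its other kept probe by -0.23 (limma adjusted p = 0.306). For the related kinase Atr the probe counted gave -0.14 (limma adjusted p = 0.327), and of its 4 other kept probes 2 were called lower, at -0.53 (limma adjusted p = 0.0283) and -0.54 (limma adjusted p = 0.0254), the latter also with the GC trend removed. Among 14 general histone chaperones, Chaf1a and Chaf1b, which hand H3 and H4 to replicating DNA, rose by 0.47 (limma adjusted p = 0.0241) and 0.54 (limma adjusted p = 0.0207), and neither was called with the GC trend removed. Of the 4 measured histone variants outside the 9 genes, namely H1fx, H1foo, Cenpa and H2afy3, limma called 0 on the probe counted, with 1, Cenpa, at an unadjusted p of at most 0.05 (log2 difference 0.24, limma adjusted p = 0.112). The probe counted for H1fx differed by -0.60 (limma adjusted p = 0.715), with 6.49 on GSK-J4 replicate 3 against 10.37 and 10.41 on the other arrays of its group. The other H1fx probe was called higher, at 0.48 (limma adjusted p = 0.0217), and was not called with the GC trend removed.

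Of the 7 enzymes of H3 lysine 27 methylation, Ezh2, a methyltransferase, was the 1 called on the probe counted, and it rose by 0.55 (limma adjusted p = 0.0260), with 1 of its 5 kept probes. The targets of GSK-J4, Kdm6a and Kdm6b, differed by 0.05 (limma adjusted p = 0.660) and 0.25 (limma adjusted p = 0.148) on the probes counted. For Kdm6a and for Suz12, a subunit of the complex of Ezh2, 1 other probe each was well above background on the vehicle arrays and on no array labelled GSK-J4. As these arrays were dimmer and such probes passed the filter through the vehicle group alone, nothing is read from them. Of the 2 kept probes of Uty, the related gene on the Y chromosome, the one not counted was called lower, at -1.41 (limma adjusted p = 0.0299), also with the GC trend removed. In the plot of gene lists only calls on the probe counted are filled.

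**Figure D4:**
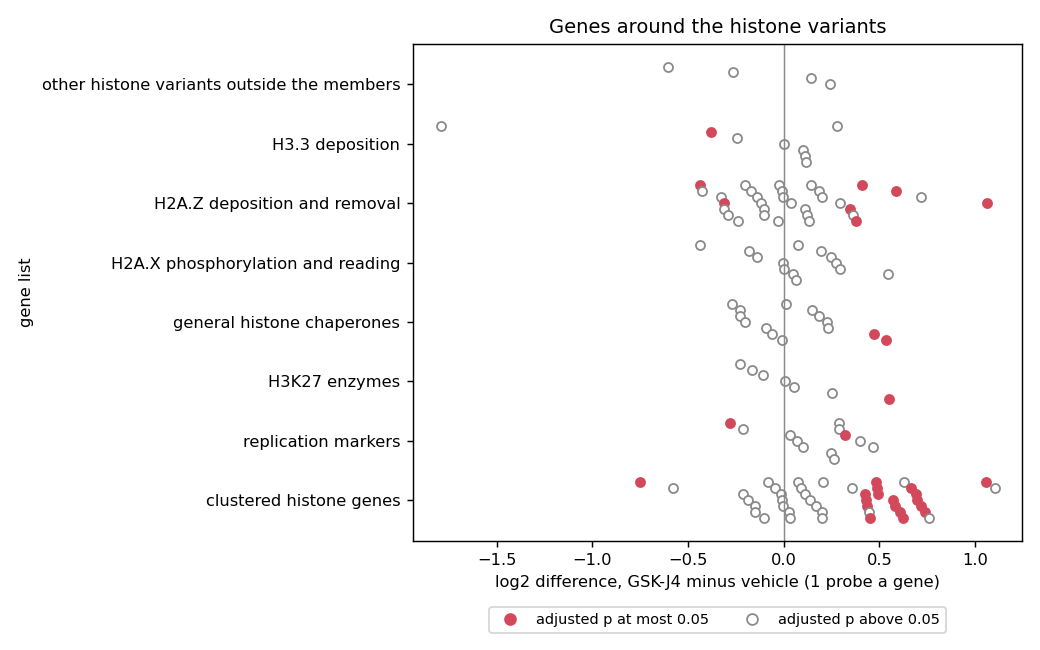
Log2 difference (GSK-J4 minus vehicle) of each measured gene of 8 lists, 1 probe a gene, filled where the limma adjusted p over all kept probes was at most 0.05. Filled points lie on both sides of 0 for H2A.Z deposition and removal and for the replication markers, and 17 of the 18 filled points of the clustered histone genes lie above 0.

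The clustered histone genes, which supply histones during DNA replication, differed from the variants in how many were called. Of 44 measured, 17 were higher and 1 was lower, with a median log2 difference of 0.28, whereas of the 9 variant genes with the same choice of probe 2 were higher and 1 lower, with a median of 0.01. This difference between the lists was not tested. The called clustered genes with the largest rises were Hist1h1b with 1.05 (limma adjusted p = 0.0313) and Hist1h2ab with 0.74 (limma adjusted p = 0.0174), and Hist1h4h fell by 0.75 (limma adjusted p = 0.0291). With the GC trend removed 4 remained higher and 1 lower, and the median was 0.17. Hist1h1b was not among them, at 0.85 (limma adjusted p = 0.0572). Clustered histone genes are alike in sequence, so a probe may read several of them. Of 12 measured replication markers Rrm2 was higher by 0.32 (limma adjusted p = 0.0499) and Pcna lower, at -0.28 (limma adjusted p = 0.0486), with a median of 0.25.

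Markers of cell types were set beside these values. Over all 22117 genes 11990 had a difference above 0, with a median of 0.04. Of 11 measured markers of hypothalamus 10 had one, with a median of 0.42. Their summed linear signal, with Npy the most abundant, was 4755, 5197 and 5320 on vehicle and 6957, 6585 and 7238 on GSK-J4, without overlap. For 5 markers of cortex and hippocampus, led by Tbr1, the sum was 15321, 15426 and 15393 on vehicle and 14024, 12691 and 13815 on GSK-J4, lower and also without overlap. By gene this list was mixed, with 2 differences above 0 and 3 below. Its median was -0.06, and 0.08 with the GC trend removed. On the 1 probe counted for each gene, 2 of 11 for hypothalamus were called higher, Npy and Pomc, 1 of 7 for microglia, Cd68, 1 of 7 for tanycytes and ependyma, Rax, and 1 of 5 for cortex and hippocampus, Emx1. For neurons 1 of 10, Map2, was lower, and for cortex and hippocampus 1, Neurod6. Of these calls only Pomc, Cd68 and Rax remained with the GC trend removed. Rax was faint on vehicle, at 3.89, 3.86 and 4.17 against 4.84, 4.80 and 5.55 on GSK-J4, so nothing is read from its call. On the probe counted, none of the 7 astrocyte, 8 oligodendrocyte, 6 endothelial, 7 choroid plexus and 5 thalamic markers was called by limma, nor was Lhb, the 1 pituitary marker measured. At an unadjusted p of at most 0.05 these lists held 2 higher genes, Aldh1l1 and Mag, and 2 lower ones, Gja1 and Slc2a1. Other probes of the markers were called in both directions, and some against the probe counted. For neurons these were 2 probes of Syt1, 2 of Map2, 1 of Snap25 and 1 of Gad2 that were lower, and 1 of Map2 and 1 of Gad1 that were higher. For the other lists 2 probes of Gja1 and 1 each of Cd68, Ghrh, Tcf7l2 and Tbr1 were higher, and 1 each of Slc1a3 and Rora lower. The summed linear signal of the neuronal list, in which Syt1 is the most abundant, was 214561, 212328 and 208953 on vehicle and 221637, 201627 and 190324 on GSK-J4, and that of the astrocyte list, led by S100b, 56364, 54322 and 52870 against 58040, 59404 and 62061. The part of cell type makeup in the differences of the histone variants was not tested. Without vehicle replicate 1, the array with high choroid plexus signal, the differences were 0.57 for A_66_P123581, 0.41 for A_52_P179238, 0.26 for H2afx, 0.42 for H2afj and -0.40 for H1f0, close to those with it, while limma called 0 of the 15 member probes (6 higher and 1 lower at an unadjusted p of at most 0.05) and, of all kept probes, 2 higher and 8 lower.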

How the data were processed

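Labelled RNA of 6 mouse hypothalami was hybridised to 1-colour Agilent arrays and read with Feature Extraction 10.7.1.1, per the labels. The authors deposited the scanner intensity of every spot and a table of log2 values, quantile normalized in GeneSpring per the methods. The log2 columns each have a median of 5.74 and correlated with the log2 scanner signal of their own array with r of at least 0.999, so that they are neither centred nor reversed; 0 columns were left unassigned. The deposited log2 values were used, and the scanner signals only for the alternatives. A probe was kept if every array of a group, 3 in each, had it well above background; 34444 of 56605 passed, with control spots left out. GSK-J4 was compared with vehicle in R 4.3.3 with limma 3.58.1 (lmFit and eBayes, two-sided, Benjamini-Hochberg adjustment over all kept probes), after a test on simulated data, and with an exact permutation test over arrays. The GC trend was removed within each array by lowess with a span of 0.3. The number of arrays limits the precision. Each array held a different mouse, so the spread within a group mixes differences between mice with those of dissection and array.

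Named genes were all members with every probe, up to 3 called genes in each direction of every list outside the cell markers, fixed lead genes of those lists, and the 2 largest called clustered histone genes in each direction. The members and the lists were chosen with earlier results of these data known. Strands came from RefSeq promoters (GRCm38.p6), which held all member genes but H2afx, and probes were placed on mm9 as the files give it. Figures were drawn with matplotlib 3.10.9.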

Additional observations from a re-analysis of the deposited data

How the results depend on the processing

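Of 15 member probes, 4 were called higher and 1 lower by limma. The scanner signals with quantile normalization gave the same counts, as did the stricter filter of 6 arrays. With 75th percentile scaling 7 were higher, as were 5032 of all 34444 kept probes while 3650 were lower, and the median log2 difference was 0.33, against 0.05 over all kept probes. H2afz reversed there, to 0.36. The methods' t-test with unequal variances called 0 and 0, with 6 and 2 at an unadjusted p of at most 0.05, and 56 and 37 over all kept probes. With equal variances it called 2 higher and 1 lower, and 1831 and 1484 over all. The lower probe was then H3f3b A_55_P2059164 (adjusted p of the t-test 0.0299) and not H1f0 (0.0744). Without a filter on dim probes 2 were higher and 0 lower (1 at an unadjusted p), and 1793 and 1972 of all 56605 probes. With normexp, and with a variance trend and robust fit together, 4 and 5 were higher and 0 lower. At an unadjusted p 1 and 2 were lower. Over all kept probes these settings called 3098 and 3455 higher and 3178 and 3315 lower, respectively. The called probe of the H2afy mRNA changed with normexp, to A_55_P2058359 in place of A_52_P179238. The GC correction with limma left 0 higher and 0 lower, with 3 and 3 at an unadjusted p. With 1 probe a gene or the mean of the probes 2 of 9 genes were higher, and the mean, which for H2afy takes in the opposite-strand probe, moved the median to 0.12. Over all 22117 genes 1988 and 1867 were higher, respectively. At the methods' threshold 1 was higher and 0 lower (1 at an unadjusted p). The replicate block gave 0 higher and 0 lower, with and without the GC correction, with 5 and 1 at an unadjusted p without it and 1 and 0 with it. It called 0 of all kept probes. Arrays of the same number deviated together with r of 0.01, 0.03 and 0.08, and those of different numbers with r from -0.10 to 0.10. With 3 arrays a group these values cannot decide whether the numbers pair the mice. Leaving out 1 array gave 0 to 1 higher, 0 to 0 lower (1 at an unadjusted p) and a median from -0.0134 to 0.0900, the former without GSK-J4 replicate 2 and the latter without GSK-J4 replicate 3. Counts without the opposite-strand probes, chosen after seeing the data, were 3 and 1. Over all kept probes leaving out a vehicle array left 1 to 2 higher and 4 to 12 lower. The cause of these changes was not tested. The dimmer arrays labelled GSK-J4 limit what can be read of faint probes.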
